A study of Mus musculus with 12 samples.

Results

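The genes described here are 6 cell-surface genes that mark the lining of blood sinusoids in many tissues: the scavenger receptors Stab1 and Stab2, the mannose receptor Mrc1, the inhibitory Fc receptor Fcgr2b, the hyaluronan receptor Lyve1 and the sialomucin Emcn. They were taken by name, and all 6 were found among the 17362 genes of the table. RNA was sequenced from endothelial cells of untreated B6 mice, sorted from crushed tibia, femur and iliac bone, and 3 libraries were made of each of 4 populations, as biological triplicates from 6 mice. Type H cells were gated as EMCN+, Sca1+, CD31+ and CD45-, with no level of EMCN or CD31 stated. Their label is that of a bone vessel type named for its high endomucin and CD31. CD200-high capillaries were gated as CD200Hi, Sca1+, CD31+, EMCN- and CD45-. Arterial cells were gated as CD200-, Sca1+, CD31+ and CD45-. The sinusoidal population was gated as CD31+, Sca1+ and CD45-, and as labelled this gate contains the other 3. EMCN, the product of Emcn, was itself a sorting antigen, so Emcn describes the sort in any comparison with type H or CD200-high cells.

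Sinusoidal endothelium takes up large molecules from blood with specialised receptors. Stabilin-1 and stabilin-2 bind modified lipoproteins and other waste molecules, and stabilin-2 also binds hyaluronan. The mannose receptor binds sugars and collagen fragments, and Fc gamma receptor IIb takes up small immune complexes. These receptors are carried into the cell through clathrin-coated pits and recycled from endosomes. Endomucin covers the luminal face of capillaries and veins with sialic acid and limits leukocyte contact. Lyve1 is best known from lymphatic vessels, liver sinusoids and some tissue macrophages, and Mrc1 and Stab1 are also made by macrophages.

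The windows of 250 bases before the transcription start (RefSeq, GRCm38.p6) are shown for Stab1, Emcn and Mrc1, where 0, 11 and 22 bases were annotated exon. Those of Stab2 and Fcgr2b, with 83 and 203 annotated exon bases, were searched but are not shown. Capitals mark AGGAA or its reverse complement TTCCT, the core of the sites bound by ETS factors such as Erg and Fli1. The Stab1 window lies at chr14:31168642-31168891 on the minus strand, the Emcn window at chr3:137340828-137341077 on the plus strand and the Mrc1 window at chr2:14229164-14229413 on the plus strand.
Stab1: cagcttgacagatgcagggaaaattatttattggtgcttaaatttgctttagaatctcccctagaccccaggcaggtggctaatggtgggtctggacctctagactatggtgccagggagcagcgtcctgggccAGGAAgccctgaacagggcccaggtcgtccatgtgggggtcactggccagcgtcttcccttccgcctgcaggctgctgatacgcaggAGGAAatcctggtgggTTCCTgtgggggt
Emcn: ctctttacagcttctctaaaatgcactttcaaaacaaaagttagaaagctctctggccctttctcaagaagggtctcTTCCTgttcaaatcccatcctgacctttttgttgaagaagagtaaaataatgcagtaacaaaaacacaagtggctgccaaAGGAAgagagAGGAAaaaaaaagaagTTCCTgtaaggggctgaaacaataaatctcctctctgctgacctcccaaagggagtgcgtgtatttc
Mrc1: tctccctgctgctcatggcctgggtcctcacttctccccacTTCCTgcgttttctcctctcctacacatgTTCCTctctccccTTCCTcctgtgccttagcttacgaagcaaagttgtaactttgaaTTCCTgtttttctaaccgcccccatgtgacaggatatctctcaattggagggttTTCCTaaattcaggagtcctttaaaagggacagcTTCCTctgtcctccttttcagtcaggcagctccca
A window was at hand for 5 of the 6 genes, all but Lyve1. On both strands the core matched 3 times at Stab1, 3 times at Stab2, 4 times at Emcn, 6 times at Mrc1 and 1 time at Fcgr2b, and 60.28% of 32851 mouse windows of this length held a match. The half-site TGCTGA bound by MAF factors began 43 bases before the start at Stab1 and 32 bases before it at Emcn, and 16.08% of the windows held it. The letters AGATAA, read by GATA factors, were in 0 of the 5 windows and in 9.988% of all windows. The letters ACAAT, read by SOX factors, were in the Emcn and Fcgr2b windows and in 27.66% of all windows. All were searched on both strands, and such matches describe the letters and not binding.

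The libraries held 7.33 to 21.6 M listed reads (M, 1e6 reads). Levels are given in CPM, reads per 1e6 reads of the size the authors scaled by, and differences in log2 CPM with 0.5 read added. The labels say that replicates are biological but not which mice went into each, so p-values measure the spread between these libraries. Ly6a, which encodes the antigen Sca1, stood at 368 to 631 CPM in type H, 919 to 1491 CPM in CD200-high, 804 to 966 CPM in arterial and 12.2 to 29.2 CPM in the libraries labelled sinusoidal. Cdh5, the endothelial cadherin, stood at 305 to 375 CPM in type H, 138 to 339 CPM in CD200-high, 132 to 176 CPM in arterial and 0.324 to 1.17 CPM in the libraries labelled sinusoidal. The last population therefore went against its label and is called the libraries labelled sinusoidal. The 16 stromal and bone markers summed to 4861 to 8038 CPM in type H, 132463 to 193831 CPM in CD200-high, 21146 to 27119 CPM in arterial and 8313 to 17728 CPM in the libraries labelled sinusoidal.

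Across the 4 populations, Stab1, Stab2, Mrc1 and Fcgr2b had 1 shape: their levels in every type H library lay above those in every other library. Emcn was also highest in type H but close behind in CD200-high, while Lyve1 was lowest in CD200-high and highest in the libraries labelled sinusoidal. Summed over the 6 genes, the level was 1916 to 2490.4 CPM in type H, 304 to 530.1 CPM in CD200-high, 155 to 250.3 CPM in arterial and 46.9 to 66.9 CPM in the libraries labelled sinusoidal. In bulk libraries such as these, fewer cells that make a gene and less RNA of it per cell cannot be told apart.

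**Figure D1:**
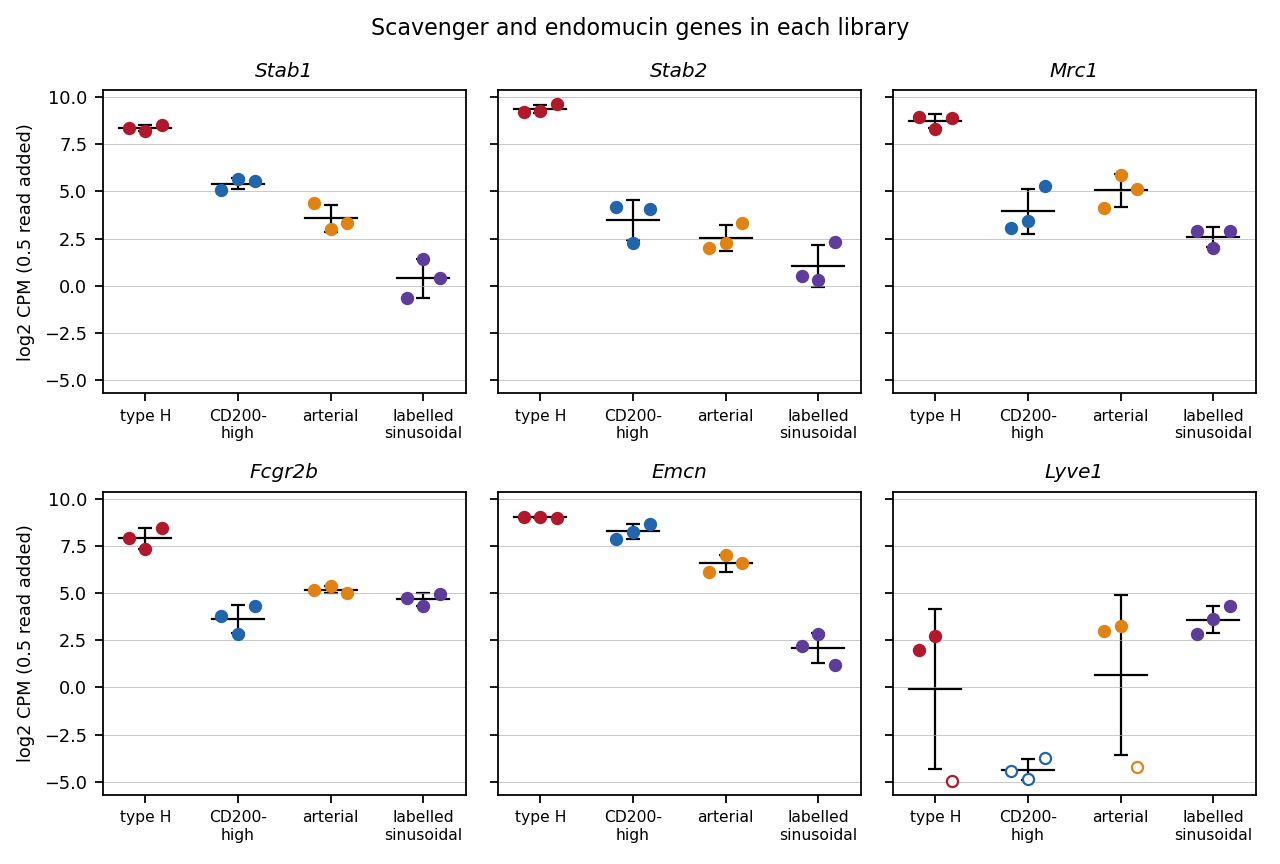
Level of each gene (log2 CPM with 0.5 read added, vertical axis) in the 3 libraries of each population, with bars for the mean ± SD and open circles for libraries with 0 reads. Stab1, Stab2, Mrc1 and Fcgr2b are above all other libraries in the 3 type H libraries, and Lyve1 has 0 reads in all 3 CD200-high libraries.

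Stab1 encodes stabilin-1, a scavenger receptor that also takes up SPARC. It stood at 328, 297 and 364 CPM in type H, 33.7, 49.5 and 46.2 CPM in CD200-high, 20.7, 7.89 and 10.1 CPM in arterial and 0.613, 2.63 and 1.32 CPM in the libraries labelled sinusoidal. The 4 populations fell into 4 steps without overlap. Type H exceeded CD200-high by 2.95 ± 0.52 on the log2 scale (SE; limma adjusted p = 0.00282). It exceeded arterial by 4.79 ± 0.52 (limma adjusted p = 0.000102) and the libraries labelled sinusoidal by 7.96 ± 0.52 (limma adjusted p = 7.52e-07). The next step was smaller: CD200-high exceeded arterial by 1.85 ± 0.52 (limma adjusted p = 0.0367). That call was lost in 12 of 24 alternatives, among them the fit without arterial replicate 2 (1.56, limma adjusted p = 0.120), without arterial replicate 3 (1.74, 0.106), without CD200-high replicate 1, 2 or 3 (0.0550, 0.0905 and 0.0781) and without type H replicate 1 or 3 (0.0563 and 0.0553), and with the replicate number as a block (0.0612). Arterial exceeded the libraries labelled sinusoidal by 3.17 ± 0.52 (limma adjusted p = 0.00206), where Stab1 rested on 11, 65 and 27 reads.

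Stab2 encodes stabilin-2, the main hyaluronan clearance receptor of liver, spleen and marrow sinusoids. It stood at 588, 618 and 793 CPM in type H, 18.1, 4.72 and 16.4 CPM in CD200-high, 3.99, 4.72 and 9.9996 CPM in arterial and 1.39, 1.21 and 4.97 CPM in the libraries labelled sinusoidal. Type H stood alone, and the other 3 populations overlapped in part. The type H level exceeded CD200-high by 5.88 ± 0.66 on the log2 scale (limma adjusted p = 0.000129), the widest gap of the 6 genes in this comparison. It exceeded arterial by 6.84 ± 0.66 (limma adjusted p = 5.43e-05) and the libraries labelled sinusoidal by 8.32 ± 0.66 (limma adjusted p = 3.28e-06). Lower down the order, CD200-high and arterial differed by 0.96 ± 0.66 (limma adjusted p = 0.380) and arterial and labelled sinusoidal by 1.48 ± 0.66 (limma adjusted p = 0.204), both short of the threshold. CD200-high exceeded the libraries labelled sinusoidal by 2.45 ± 0.66 (limma adjusted p = 0.0164) although single libraries overlapped. Without CD200-high replicate 1 or 3 or labelled sinusoidal replicate 1 or 2 the adjusted p was 0.0571, 0.0517, 0.0578 and 0.0628.

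Mrc1 encodes the mannose receptor CD206. It stood at 495, 310.3 and 476 CPM in type H, 8.41, 10.8 and 39.3 CPM in CD200-high, 17.5, 59.1 and 35.0 CPM in arterial and 7.52, 3.97 and 7.46 CPM in the libraries labelled sinusoidal. Every type H library was far above the rest, and arterial came second rather than CD200-high. Type H exceeded CD200-high by 4.77 ± 0.59 on the log2 scale (limma adjusted p = 0.000267), arterial by 3.66 ± 0.59 (limma adjusted p = 0.00118) and the libraries labelled sinusoidal by 6.10 ± 0.59 (limma adjusted p = 1.44e-05). CD200-high minus arterial was -1.11 ± 0.59 (limma adjusted p = 0.251), with CD200-high replicate 3 inside the arterial range. Without that library the difference was -1.79 and passed (limma adjusted p = 0.0406). CD200-high and the libraries labelled sinusoidal differed by 1.33 ± 0.59 (limma adjusted p = 0.114). Arterial exceeded the libraries labelled sinusoidal by 2.44 ± 0.59 (limma adjusted p = 0.0214). This call was lost without arterial replicate 2 (0.0925) or 3 (0.0744) and without labelled sinusoidal replicate 2 (0.0861).

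Fcgr2b encodes the inhibitory Fc gamma receptor IIb, made by sinusoidal endothelium and by B cells and myeloid cells. It stood at 244, 162 and 349.7 CPM in type H, 13.9, 7.08 and 19.5 CPM in CD200-high, 35.9, 41.3 and 32.0 CPM in arterial and 26.8, 19.5 and 31.2 CPM in the libraries labelled sinusoidal. Type H was again apart, and CD200-high had the lowest mean, not the libraries labelled sinusoidal. The type H level exceeded CD200-high by 4.27 ± 0.39 on the log2 scale (limma adjusted p = 3.59e-05), arterial by 2.73 ± 0.39 (limma adjusted p = 0.000609) and the libraries labelled sinusoidal by 3.24 ± 0.39 (limma adjusted p = 8.80e-05). Arterial and labelled sinusoidal differed by 0.51 ± 0.39 (limma adjusted p = 0.496). CD200-high was lower than arterial, at -1.54 ± 0.39 (limma adjusted p = 0.0255). That call was lost without CD200-high replicate 2 (-1.14, 0.0653) and without arterial replicate 1, 2 or 3 (0.0706, 0.0796 and 0.0559). CD200-high minus labelled sinusoidal was -1.03 ± 0.39 (limma adjusted p = 0.0731), and it passed without CD200-high replicate 3 (-1.35, 0.0285), with the replicate number as a block (0.0480) and with libraries set to the same total of listed reads (-1.34, 0.0211). The B cell marker list summed to 147 to 223 CPM in type H, 248 to 390 CPM in CD200-high, 1895 to 4666 CPM in arterial and 11213 to 12801 CPM in the libraries labelled sinusoidal, and its part in the Fcgr2b levels was not tested. Fcgr2b resembles its neighbour gene Fcgr3 in sequence and its exons share 155 bases with the antisense gene Gm38204, so its reads are uncertain to that extent. Fcgr3, an activating Fc receptor, had another order, with 12.2 to 33.2 CPM in type H, 28.5 to 61.6 CPM in CD200-high, 131 to 216 CPM in arterial and 24.5 to 58.5 CPM in the libraries labelled sinusoidal.

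Emcn encodes endomucin. It stood at 527, 523 and 508 CPM in type H, 229.8, 304 and 409 CPM in CD200-high, 68.6, 128 and 95.7 CPM in arterial and 4.62, 7.05 and 2.29 CPM in the libraries labelled sinusoidal. CD200-high cells were sorted as EMCN-, yet Emcn stood above 98.47% of genes in type H and above 96.93% in CD200-high. The populations did not overlap, but type H minus CD200-high was 0.76 ± 0.37 on the log2 scale and did not pass (limma adjusted p = 0.221), and with all libraries set to 1 pan-endothelial median it was -0.010. Type H exceeded arterial by 2.46 ± 0.37 (limma adjusted p = 0.000831) and the libraries labelled sinusoidal by 6.94 ± 0.37 (limma adjusted p = 1.88e-07). CD200-high exceeded arterial by 1.69 ± 0.37 (limma adjusted p = 0.0124), a call lost without arterial replicate 1 (1.46, 0.0552) and on the pan-endothelial scale (0.62, limma adjusted p = 0.418). It exceeded the libraries labelled sinusoidal by 6.17 ± 0.37 (limma adjusted p = 7.54e-07). Arterial against labelled sinusoidal, the pair with no EMCN gate in its labels, differed by 4.48 ± 0.37 (limma adjusted p = 2.22e-05). On the pan-endothelial scale that difference was 0.74 and did not pass (limma adjusted p = 0.249).

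Lyve1 encodes a hyaluronan receptor of the link protein family. It had 75, 120 and 0 reads in type H, 0, 0 and 0 reads in CD200-high, 132, 150 and 0 reads in arterial and 128, 309 and 403 reads in the libraries labelled sinusoidal. In CPM these were 3.85, 6.66 and 0 in type H, 7.86, 9.32 and 0 in arterial and 7.13, 12.5 and 19.6 in the libraries labelled sinusoidal. The gene was thus scarce everywhere and unevenly detected between replicates of type H and of arterial cells. With a floor of 3 reads in each CD200-high library, which covers counting error only, the mean level was at least 42.3-fold lower in CD200-high than in the libraries labelled sinusoidal. Against the same floor the arterial mean was 18.5-fold and the type H mean 11.3-fold higher. Each of those means includes 1 library with 0 reads. Libraries overlapped in both comparisons, so these folds set no lower limit on the difference. Of the 6 comparisons, CD200-high minus labelled sinusoidal alone passed for Lyve1 (limma adjusted p = 0.0204). It did not pass without labelled sinusoidal replicate 2 (0.0563) or 3 (0.0635). CD200-high minus arterial (limma adjusted p = 0.173) passed without arterial replicate 3 (0.0462). Type H minus CD200-high, type H minus labelled sinusoidal and arterial minus labelled sinusoidal did not pass (limma adjusted p = 0.254, 0.254 and 0.491). With all libraries set to 1 pan-endothelial median, Lyve1 was called lower in type H than in labelled sinusoidal (-9.27, limma adjusted p = 0.00100) and lower in arterial than in labelled sinusoidal (-6.68, limma adjusted p = 0.0123). That scale itself moved the median of all genes by -5.59 and -3.74 in these comparisons. On the deposited scale the Lyve1 differences were -3.68 and -2.94, neither called. Type H minus arterial was -0.74 ± 2.23 (limma adjusted p = 0.856) and changed sign without type H replicate 3 (1.69), arterial replicate 1 (0.42) or arterial replicate 2 (0.54). Prox1, the defining transcription factor of lymphatic endothelium, stood at 0 to 8.60 CPM in type H, 0.278 to 13.1 CPM in CD200-high, 1.85 to 7.58 CPM in arterial and 0.557 to 5.14 CPM in the libraries labelled sinusoidal.

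Counted over comparisons, a gene is called where its limma p, adjusted by Benjamini-Hochberg over all 17086 genes tested, is under 0.05, and all 6 genes passed the filter on low values. In type H minus CD200-high, 4 of 6 were called, all higher, where 13.0% of all genes were called and 6.35% were higher. The libraries of 5 of 6 did not overlap, as in 30.9% of genes. In type H minus arterial 5 of 6 were called higher, against 20.7% of genes called and 7.96% higher, and the libraries of 5 of 6 did not overlap, as in 40.0% of genes. In type H minus labelled sinusoidal 5 of 6 were called higher, against 28.6% of genes called and 13.9% higher, and the libraries of 6 of 6 did not overlap, with type H below for Lyve1, as in 46.8% of genes. Emcn, whose product was a sorting antigen, is among the 5 both against arterial and against labelled sinusoidal. CD200-high minus arterial called 3 of 6, Stab1 and Emcn higher and Fcgr2b lower, against 12.9% of genes, 4.75% higher and 8.15% lower. The libraries of those 3 did not overlap, as in 32.2% of genes. The count there was 1 without CD200-high replicate 2, arterial replicate 1 or arterial replicate 2. CD200-high minus labelled sinusoidal called 4 of 6, Stab1, Stab2 and Emcn higher and Lyve1 lower, against 28.7% of genes, 14.1% higher and 14.6% lower, and 2 without labelled sinusoidal replicate 2. In that comparison the libraries of 4 of 6 did not overlap, as in 46.5% of genes. Arterial minus labelled sinusoidal called 3 of 6, Stab1, Emcn and Mrc1, all higher, against 10.2% of genes, 8.09% higher and 2.14% lower. There the libraries of 4 of 6 did not overlap, as in 39.5% of genes. Stab1, Stab2, Mrc1 and Fcgr2b were higher in type H than in each of the other 3 populations, as were 493 genes or 2.89% of those tested. The 6 genes' median differences, 4.26, 3.19 and 6.52 for type H over the other populations in the same order, stood beside medians over all genes of 0.05, -0.20 and -0.20. The 6 genes were chosen with earlier results of these data known, so these counts and medians are a description.

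The choice of scale changed many calls, most of all against the libraries labelled sinusoidal, whose pan-endothelial list summed to 415 to 459 CPM, beside 9611 to 10613 CPM in type H. Shifting every library to 1 median of the pan-endothelial list moved the median of all genes by -0.78, -1.85 and -5.59 in type H over CD200-high, arterial and labelled sinusoidal. Over all genes, type H minus CD200-high then had 323 calls higher and 1676 lower, against 1085 and 1138 on the deposited scale. Type H minus arterial had 238 higher and 9769 lower, against 1360 and 2176, and type H minus labelled sinusoidal 162 higher and 15275 lower, against 2383 and 2499. CD200-high minus arterial had 110 higher and 4083 lower, against 811 and 1393, CD200-high minus labelled sinusoidal 159 and 14314, against 2407 and 2495, and arterial minus labelled sinusoidal 198 and 12464, against 1383 and 365. On that scale Stab1 and Stab2 stayed called higher in type H than in each other population. Mrc1 over labelled sinusoidal dropped to 0.52 (limma adjusted p = 0.385), Fcgr2b over arterial to 0.88 (0.113) and Emcn over arterial to 0.61 (0.356). Fcgr2b over labelled sinusoidal turned to -2.35 (0.000268). In CD200-high minus arterial the calls of Stab1 (0.77, limma adjusted p = 0.359) and Emcn were lost and Mrc1 was called lower (-2.19, limma adjusted p = 0.0144). In CD200-high minus labelled sinusoidal Stab1 dropped from a call to 0.21 (limma adjusted p = 0.762), and Fcgr2b gained one at -5.84 (limma adjusted p = 7.35e-08). CD200-high over labelled sinusoidal turned lower for Stab2 and Mrc1 (-2.36 and -3.48), and arterial over labelled sinusoidal for Stab1, Stab2, Mrc1 and Fcgr2b (-0.57, -2.25, -1.29 and -3.22).

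**Figure D2:**
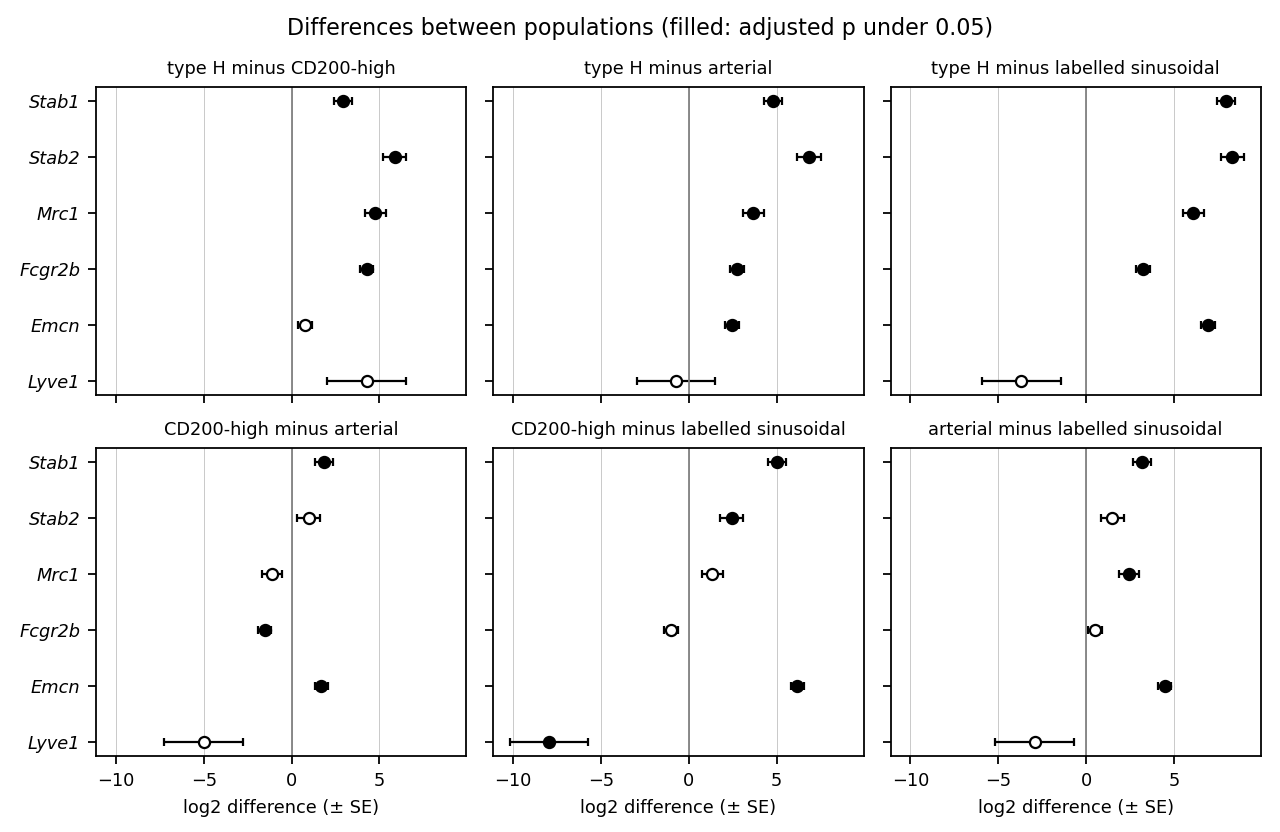
Difference between populations (log2 CPM ± SE, horizontal axis) for each gene in the 6 comparisons, filled where the limma adjusted p is under 0.05. In type H minus CD200-high the filled points are Stab1, Stab2, Mrc1 and Fcgr2b at 2.95 to 5.88. Fcgr2b in type H over labelled sinusoidal is drawn at 3.24, and on the pan-endothelial scale, which is not drawn, it turns to -2.35.

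Per kilobase of exon the order of the genes differed between populations. In type H, Emcn led with 200.6 CPM per kb, followed by Stab2 at 81.0, Mrc1 at 79.5, Fcgr2b at 66.1, Stab1 at 41.2 and Lyve1 at 1.21 CPM per kb. In CD200-high, Emcn stood at 121 CPM per kb and the other detected genes at 1.59 to 5.39, with Stab1 next after Emcn. In arterial cells Emcn stood at 37.7, Fcgr2b at 9.56 and Mrc1 at 6.92 CPM per kb. In the libraries labelled sinusoidal Fcgr2b led with 6.78 and Lyve1 followed with 4.53 CPM per kb, while Stab1 was last at 0.190. Emcn, the shortest of the 6 by exon length (2588 bases), thus led in 3 of the 4 populations.

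The 2 stabilins were in different proportions. The log2 ratio of Stab2 to Stab1 per kb was 0.80, 1.02 and 1.08 in type H, -0.94, -3.43 and -1.54 in CD200-high, -2.41, -0.78 and -0.06 in arterial and 1.14, -1.16 and 1.88 in the libraries labelled sinusoidal. Stab2 was the higher of the pair in all 3 type H libraries, and Stab1 in all 3 CD200-high and all 3 arterial libraries. Type H minus CD200-high was 2.94 on the log2 scale, with a two-sided exact permutation p of 0.1, the smallest that 3 libraries against 3 allow. Type H minus arterial was 2.05 (exact permutation p = 0.1). The labelled sinusoidal libraries spread across the type H range (exact permutation p = 1), on few reads. The exons of Stab1 share 112 bases with Nt5dc2 and those of Stab2 141 bases with Gm16268, each on the opposite strand, and the strand counted is not stated.

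**Figure D3:**
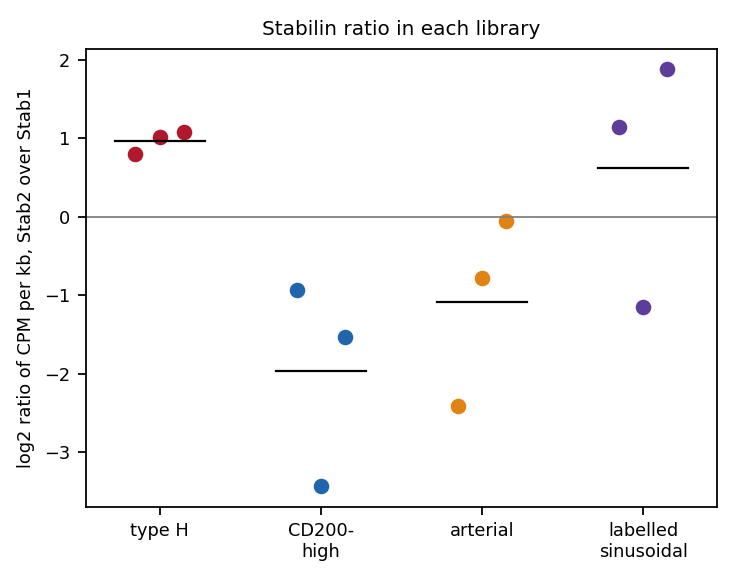
Log2 ratio of Stab2 to Stab1 in CPM per kb (vertical axis) in each library of the 4 populations, with the line at 0 for equal levels. All 3 type H libraries are above 0, at 0.80 to 1.08, and all CD200-high and arterial libraries are below it.

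Other genes known from sinusoidal endothelium were mostly highest in type H. Whether the gate labelled type H also took in sinusoidal cells was not tested. Of 22 such genes 21 were in the table, and 16 were higher and 0 lower in type H than in CD200-high, 16 higher and 0 lower than in arterial, and 17 higher and 0 lower than in the libraries labelled sinusoidal. Their median differences were 3.98, 5.27 and 6.59 on the log2 scale, and 15 of 21 were higher in type H than in each other population. The shares of all genes called higher were 6.35%, 7.96% and 13.9% in the same order, and 2.89% in all 3 comparisons. On the pan-endothelial scale 14 of the 21 were higher and 0 lower than in CD200-high, and 7 higher and 4 lower than in labelled sinusoidal. Tfpi, an inhibitor of the clotting start, stood at 3335 to 4660.2 CPM in type H and 66.1 to 131 CPM in CD200-high, a difference of 5.36 ± 0.42 (limma adjusted p = 1.15e-05). Vcam1, an adhesion molecule for leukocytes, stood at 612 to 903 CPM in type H and 32.5 to 62.7 CPM in CD200-high, a difference of 4.20 ± 0.30 (limma adjusted p = 6.47e-06). Lrg1, a secreted leucine-rich glycoprotein, differed by 3.98 ± 0.29 and Adamts5, a proteoglycan-cleaving protease, by 4.87 ± 0.39 in the same comparison (limma adjusted p = 6.42e-06 and 1.45e-05). Oit3 was at 44.6 to 52.9 CPM in type H and had 0 reads in all 3 CD200-high libraries. The pan-endothelial list of 16 genes was called higher for 5 genes over CD200-high, 12 over arterial and 13 over labelled sinusoidal, with 0, 1 and 1 lower. In a fit without the libraries labelled sinusoidal, 8 of them were higher in type H than in CD200-high. On the pan-endothelial scale 0 were, but that scale sets the median of this same list equal and so cannot test the list. The list of sinusoidal genes and the 6 genes were chosen with earlier results of these libraries known, so their shared direction is a description.

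**Figure D4:**
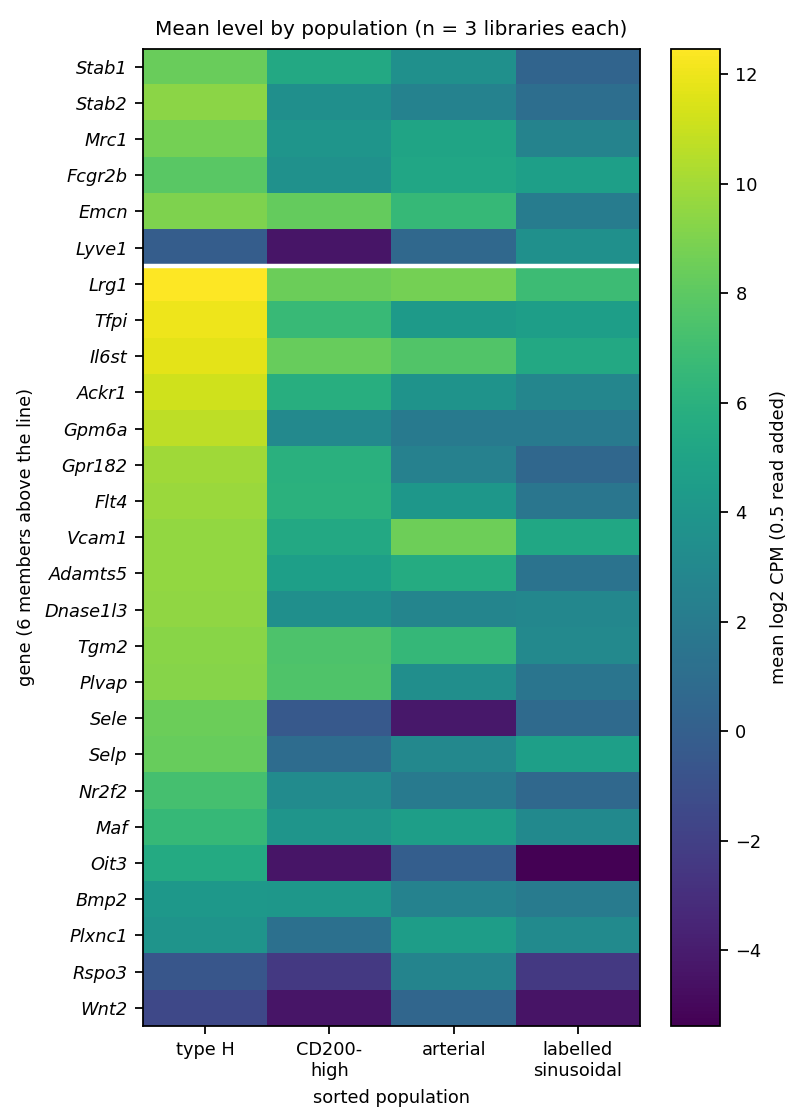
Mean level (log2 CPM with 0.5 read added, colour) of the 6 genes, above the line, and of the other sinusoidal endothelial genes in the 4 populations, n = 3 libraries each. The type H column is the brightest for Stab1, Stab2, Mrc1 and Fcgr2b and for most genes below the line.

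Of 28 genes of clathrin-coated pits and early endosomes, 7 were higher and 2 lower in type H than in CD200-high. All genes tested gave 6.35% higher and 6.66% lower. The median difference of the 28 was 0.52, against 0.05 over all genes. The higher ones were Clta and Cltc (clathrin light and heavy chains), Ap2m1 and Ap2s1 (subunits of the adaptor that gathers cargo), Hip1, Ehd3 and Rab11a, the last a GTPase of receptor recycling. Cltc differed by 1.42 ± 0.14 (limma adjusted p = 4.43e-05), Ap2s1 by 1.92 ± 0.19 (limma adjusted p = 5.10e-05) and Ehd3 by 3.26 ± 0.46 (limma adjusted p = 0.000655). On the pan-endothelial scale 1 of the 7 higher genes, Ehd3, was still called (2.48, limma adjusted p = 0.0172), while Cltc was at 0.65 (0.277) and Ap2s1 at 1.15 (0.0981). Gga2 and Rab5a, a GTPase of early endosomes, were lower, Rab5a at -1.63 ± 0.34 (limma adjusted p = 0.00753). Against arterial 8 were higher and 1 lower, beside 7.96% and 12.7% of all genes. Against labelled sinusoidal 13 were higher and 2 lower, beside 13.9% and 14.6% of all genes. On the pan-endothelial scale the latter became 0 higher and 26 lower, where 15275 of all 17086 genes were lower.

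Receptors that resemble the 6 genes were mostly not called in type H minus CD200-high. Of 21 other scavenger and endocytic receptors tested, 2 were higher, 5 lower and 14 not called. Over all genes 6.35% were higher and 6.66% lower. In a fit without the libraries labelled sinusoidal 3 receptors, Mrc2, Scara3 and Vldlr, were lower. On the pan-endothelial scale 0 of the 21 were higher and 7 lower. Scarf1, an endothelial receptor for modified lipoprotein, was higher by 2.46 ± 0.42 (limma adjusted p = 0.00241), and Scarb2, a lysosomal membrane protein, was the other; on the pan-endothelial scale they stood at 1.68 (0.0831) and 0.62 (0.424). Mrc2, the collagen receptor of the mannose receptor family, stood at 0.111 to 1.64 CPM in type H and 123 to 224 CPM in CD200-high, a difference of -8.93 ± 0.82 (limma adjusted p = 3.47e-05). Mrc1 and Mrc2 thus ran in opposite directions. Scara3, Vldlr, Lrp1 and Cd163 were also lower, Scara3 at -4.36 ± 0.43 (limma adjusted p = 5.09e-05), while Lrp1 and Cd163 were not called without the libraries labelled sinusoidal (limma adjusted p = 0.0595 and 0.0575). Cd163 was also not called without type H replicate 1 or 2 or CD200-high replicate 1 or 3 (0.0679 to 0.0957). Mrc2 is also made by fibroblasts and bone cells, and the stromal list was highest in the CD200-high libraries; its part in these 5 genes was not tested. Against arterial 3 of the 21 were higher and 7 lower, beside 7.96% and 12.7% of all genes. Against labelled sinusoidal 6 were higher and 3 lower, beside 13.9% and 14.6% of all genes. Cd36, a fatty acid and thrombospondin receptor, was among the higher ones there, at 5.76 ± 0.36 (limma adjusted p = 6.00e-07), and was at 0.17 on the pan-endothelial scale (limma adjusted p = 0.748). On that scale 1 of the 21 was higher and 16 lower, where 15275 of all 17086 genes were lower.

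Among 7 other Fc receptor genes, Fcgrt, the recycling receptor for IgG and albumin, was the 1 gene higher in type H in each of the 3 comparisons. It stood at 841 to 1112 CPM in type H, 247 to 289 CPM in CD200-high, 72.6 to 184 CPM in arterial and 15.1 to 29.1 CPM in the libraries labelled sinusoidal. Its excess in type H over CD200-high was 1.86 ± 0.31 on the log2 scale (limma adjusted p = 0.00216), and 1.08 without a call on the pan-endothelial scale (limma adjusted p = 0.0924). Its difference of 5.53 over labelled sinusoidal turned to -0.055 on the pan-endothelial scale. Fcrla, a B cell gene, was lower in type H than in CD200-high, at -5.60 ± 1.61 (limma adjusted p = 0.0408), with 0 reads in 2 of the 3 type H libraries, and its adjusted p was 0.0933 in a fit without the libraries labelled sinusoidal. Leaving out any 1 of 11 of the 12 libraries, all but type H replicate 1, ended that call (0.0571 to 0.133). Fcer1g, the signalling chain of activating Fc receptors, stood at 292 to 372 CPM in type H and 174 to 258 CPM in CD200-high and was not called (limma adjusted p = 0.113). Against arterial, Fcer1g, Fcgr3 and Fcrla were called lower in type H.

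Ligands and relatives of the receptors were mixed. Of 12 hyaluronan genes 0 were higher and 2 lower in type H than in CD200-high, beside 6.35% and 6.66% of all genes. The lower ones were Cd44, the other main hyaluronan receptor (-2.30 ± 0.38, limma adjusted p = 0.00176), and Cemip, a hyaluronan-binding protein with 0 reads in all 3 type H libraries. Hyal2, a hyaluronidase, was higher in type H than in labelled sinusoidal by 3.81 ± 0.30 (limma adjusted p = 2.97e-06), and turned to -1.77 on the pan-endothelial scale. Of 6 reported stabilin partners 2 were higher and 2 lower in type H than in CD200-high. Tgfbi was higher by 3.97 ± 0.66 (limma adjusted p = 0.00189) and Chid1 by 0.94 ± 0.24 (limma adjusted p = 0.0231). Chid1 was not called without type H replicate 1 (0.0781) or 2 (0.0510) or CD200-high replicate 1 (0.0526) or 3 (0.0661), nor on the pan-endothelial scale (0.17, 0.818). Sparc, a matrix protein, was lower at 3759 to 4989 CPM in type H and 26895 to 43777 CPM in CD200-high (-2.94 ± 0.33, limma adjusted p = 0.000133), and Postn had 0 reads in the type H libraries. After quantile normalization the Sparc difference was -1.16 and was not called (limma adjusted p = 0.0668). Sparc is also in the stromal and bone list, whose sum was highest in CD200-high. The part of stromal cells in the Sparc and Postn levels was not tested.

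Among 8 sialomucins besides Emcn, 1 was higher and 3 lower in type H than in CD200-high, beside 6.35% and 6.66% of all genes. Madcam1, an adhesion ligand for homing lymphocytes, stood at 20.2 to 49.6 CPM in type H and had 0 reads in all 9 other libraries. With the floor of 3 reads per library it was at least 104-fold higher in type H than in CD200-high, at least 141-fold higher than in arterial and at least 222-fold higher than in the libraries labelled sinusoidal. Podxl, podocalyxin, was lower in type H than in CD200-high, at -2.62 ± 0.62 (limma adjusted p = 0.0167), but was not called without type H replicate 1 (0.0629) or 3 (0.0529) or CD200-high replicate 3 (0.0509). Podxl2 was lower too, and so was Spn (-3.61 ± 0.75, limma adjusted p = 0.00794). Spn was not called with voom (limma adjusted p = 0.0534), with a pseudocount of 10 CPM (-0.90, 0.0676) or in a fit of those 2 populations (0.175). Cd34 was not called there (-1.01 ± 0.36, limma adjusted p = 0.0953).

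The stabilins also bind phosphatidylserine, the lipid that dying cells expose. Of 13 genes of phosphatidylserine recognition 3 were higher and 1 lower in type H than in CD200-high. Over all genes 6.35% were higher and 6.66% lower. Axl, a receptor kinase, was higher by 3.63 ± 0.42 (limma adjusted p = 0.000159), Pros1 by 2.09 ± 0.25 (limma adjusted p = 0.000219) and the bridging protein Mfge8 by 1.16 ± 0.17 (limma adjusted p = 0.000733). On the pan-endothelial scale Mfge8 was at 0.38 and was not called (limma adjusted p = 0.579). Itgb5, an integrin chain, was lower, at -7.95 ± 0.88 (limma adjusted p = 0.000117). Against arterial 3 of the 13 were higher and 5 lower, beside 7.96% higher and 12.7% lower over all genes. Against labelled sinusoidal 7 were higher and 2 lower, beside 13.9% and 14.6% of all genes. On the pan-endothelial scale this became 0 higher and 11 lower, where 15275 of all 17086 genes were lower.

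Markers of other cells that can make these receptors stood as follows. The 15 macrophage markers summed to 289 to 419 CPM in type H, 162 to 288 CPM in CD200-high, 1120.2 to 2702 CPM in arterial and 211 to 330.0 CPM in the libraries labelled sinusoidal. Adgre1, the defining macrophage marker F4/80, had 0 reads in 2 of 3 type H and 2 of 3 CD200-high libraries and stood at 7.62 to 36.8 CPM in arterial. The macrophage sum in every type H library was below that in every arterial library. It was above that in every CD200-high library, by 289 against 288 CPM where closest. Of the 15 markers, Hmox1 alone was called higher in type H than in CD200-high (7.20 against 5.49 on the log2 scale). C1qa and Cd163 were called lower. Each of these calls was lost without any 1 of 4 libraries. Mrc1, Stab1 and Fcgr2b were higher in type H than in arterial and in CD200-high, and the part of macrophages in type H was not tested. Arterial Mrc1 and Fcgr2b lay above their CD200-high means in the population with the highest macrophage sum; the part of macrophages there was not tested. The 8 lymphatic markers summed to 1297 to 1444 CPM in type H, 146 to 179 CPM in CD200-high, 126 to 239.8 CPM in arterial and 239 to 284 CPM in the libraries labelled sinusoidal. In type H that sum came mainly from Flt4 and Mmrn1, at 789 to 982 and 357 to 375 CPM, while Pdpn had 0 reads in 2 of 3 libraries.

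**Figure D5:**
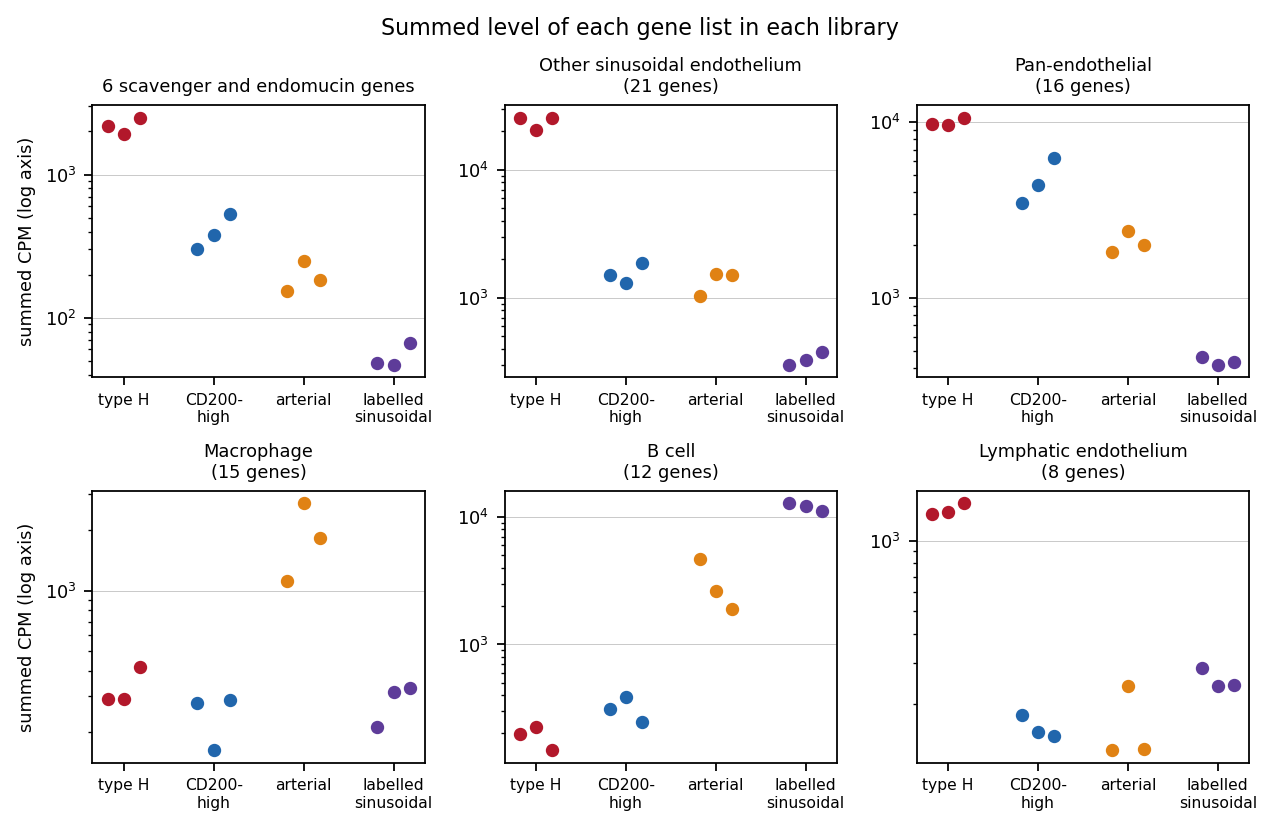
Summed level (CPM, log axis) of the 6 genes and of 5 marker lists in each library of the 4 populations. The 6 genes are highest in type H at 1916 to 2490.4 CPM, the macrophage list in arterial and the B cell list in the libraries labelled sinusoidal.

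Over the 12 libraries, which share their 4 populations, the 6 genes correlated unevenly. Pearson's r of the log2 levels was 0.92 for Stab1 with Emcn, 0.92 for Stab2 with Mrc1, 0.88 for Mrc1 with Fcgr2b and 0.88 for Stab1 with Stab2. For Emcn with Fcgr2b it was 0.36, and for Lyve1 with the other 5 it ran from -0.58 to 0.16. The named genes most like Stab1 among all tested were B3gnt3 and Eng (both 0.99), Rasgrp3 and Armcx4 (both 0.98). Most like Stab2 were Tmem37 (0.98), Srsf5, Chst2 and Cadm3 (each 0.97). Most like Emcn were Tek, the angiopoietin receptor, with Sept4, Efna1 and Arhgap29 (each 0.99). Most like Mrc1 were Csf2rb2 (0.98), Parp14, Ccdc152 and Selenop (each 0.97), of which the last 2 overlap on opposite strands in the mouse annotation. Most like Fcgr2b were Zfp384, Ugcg, Pitrm1 and Ap1b1 (each 0.96). Most like Lyve1 were Cct4 and Nefh (both 0.96), Tspoap1 (0.93) and Zbed4 (0.92). These values describe order across populations and carry no test.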

How the data were processed

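The deposited table has a row for each of 17362 mouse genes and a column for each of 12 libraries. Its values are log2 CPM, in which the authors added 0.5 read to each count and divided by a scaled size of the library; how that size was scaled is not given in the sources used here. Undoing this gave whole reads within 0.01 for 100% of values in every library, from which reads and CPM were recovered. Per the labels' protocols, a low-input cDNA kit was used and reads were 150 bp long. The submitters' processing notes name Trimmomatic, STAR, SAMtools, deepTools, featureCounts, R 4.3 and the build hg38, although the symbols are mouse, so no coordinates were taken from the files. Promoter windows (RefSeq) and exon lengths (GENCODE) came from the mouse build GRCm38. Strand, annotation and settings are not given in the sources used here.

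Comparisons used limma 3.58.1 in R 4.3.3, with a mean-variance trend and group means over all 12 libraries, after removing 276 genes that failed to reach 0.63 CPM, which is 10 reads at the mean scaled size of 15.9 M, in 3 or more libraries. This left 17086 genes, over which p-values were adjusted by Benjamini-Hochberg. The script was tested on simulated data. Between replicates, chi-square per degree of freedom was 54.5 to 128, so no libraries were alike within counting error. The plan allowed for linear values; the log2 values were tested as they stand.

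The 6 genes, the 15 lists (200 genes, 195 in the table), the tests and the alternatives were chosen with earlier results of these data known. Named genes were the 6 genes, the 4 genes most correlated with each, up to 4 genes called with the lowest adjusted p of every list in type H minus CD200-high and in type H minus labelled sinusoidal, and the sorting antigens. Other genes named were chosen after their values were seen, to fill counts or to give a marker's level. The neutrophil list had 0 of 12 genes called in type H minus CD200-high and 12 of 12 lower in type H minus arterial. Alternatives covered the filter, the trend, voom, pseudocounts of 1 and 10 CPM, 3 scalings, the libraries in the fit, the replicate block and leaving out each library. The labels give mouse numbers 1 to 3 in every population.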

Additional observations from a re-analysis of the deposited data

How the results depend on the processing

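Stab1, Stab2, Mrc1 and Fcgr2b kept their call in type H minus CD200-high in all 24 alternatives, with Stab1 the weakest at 2.17 to 3.08 (limma adjusted p up to 0.0388). Leaving out 1 library at a time, the genes higher in type H than in each other population stayed at 4 of 6, and the calls ran from 4 to 4 for type H minus CD200-high, 5 to 5 for type H minus arterial and 5 to 5 for type H minus labelled sinusoidal. They ran from 1 to 3 for CD200-high minus arterial, 2 to 4 for CD200-high minus labelled sinusoidal and 2 to 3 for arterial minus labelled sinusoidal. Without the trend, CD200-high minus arterial called 1. With the libraries set to 1 pan-endothelial median, 2 genes were higher in type H than in each other population and 3 were called in type H minus arterial. That scale ended or added the calls given in the report and turned Emcn in type H minus CD200-high (-0.010), Fcgr2b in type H minus labelled sinusoidal (-2.35), Stab2 in CD200-high minus arterial (-0.11) and Stab2 and Mrc1 in CD200-high minus labelled sinusoidal (-2.36 and -3.48). It turned Stab1, Stab2, Mrc1 and Fcgr2b in arterial minus labelled sinusoidal (-0.57, -2.25, -1.29 and -3.22). Among other genes it turned Egfl7 in type H minus CD200-high (-0.065) and, in type H minus labelled sinusoidal, Scarb1 (-3.21), Fcgrt (-0.055), Hyal2 (-1.77), Itih5 (-3.07), Hip1 (-1.49), Ap2s1 (-3.82), Cltc (-4.35), Cd34 (-1.38), Mfge8 (-2.04), Pros1 (-2.43), Axl (-1.85), Chid1 (-2.70), Tgfbi (-2.05), Eng (-0.88) and Hmox1 (-3.86). The shift of the median gene by -5.59 is built into that scale there. Lyve1 in type H minus arterial turned with quantile normalization (0.036) and without type H replicate 3 (1.69), arterial replicate 1 (0.42) or arterial replicate 2 (0.54), and ran from -3.19 to 1.69 over the libraries left out. Emcn in type H minus CD200-high was called with voom (0.81, limma adjusted p = 0.00831).

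With the replicate number as a block, the members called were 4, 5, 5, 2, 5 and 3 in the 6 comparisons in the order of the report. With the block, Stab1 in CD200-high minus arterial lost its call (limma adjusted p = 0.0612) and Fcgr2b in CD200-high minus labelled sinusoidal gained one (limma adjusted p = 0.0480). Deviations of same-numbered libraries from their population means correlated at -0.07 to 0.12 (median 0.03 over 11211 genes, with 2 of 18 pairs over 0.1). The 12 libraries came from 6 mice, so some share animals, and whether same-numbered ones do is not stated. The calls over all genes changed by over 1.5 times in some alternatives: type H minus CD200-high called 1337 genes in a fit of those 2 populations, against 2223. CD200-high minus arterial called 1353 without arterial replicate 1 and 1397 without arterial replicate 3, against 2204. Arterial minus labelled sinusoidal called 2829 in a fit of those 2 populations, 1082 and 1019 without arterial replicate 2 and 3, and 1134 without labelled sinusoidal replicate 2, against 1748. On the pan-endothelial scale 1999 genes were called in type H minus CD200-high and 10007, 15437, 4193, 14473 and 12662 in the other 5. The fit without the libraries labelled sinusoidal, chosen after seeing the data, changed no call of the 6 genes in the other 3 comparisons. In type H minus CD200-high it left 3 rather than 5 scavenger receptors, 1 rather than 2 clathrin genes and 0 genes of the Fc receptor, macrophage and B cell lists lower. Lyve1 had 0 reads in 5 libraries of 7.33 to 16.2 M listed reads, beside replicates with 75 to 150 reads in type H and arterial. Stab1 in the libraries labelled sinusoidal rests on 11 to 65 reads.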
